A study of Mus musculus with 16 samples.

Results

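The proteasome genes were 48 gene symbols out of 53679 in the deposited table. They were every symbol made of Psm, a letter from a to g and a number, and each was measured as the sum of its isoforms' FPKM (fragments per kilobase of transcript, scaled to library size). They comprised 15 genes of the 20S core, 4 immunoproteasome and thymoproteasome genes, 22 regulatory genes and 7 assembly chaperones. The cultures were primary cortical neurons from wild-type mice, taken at embryonic day 15. At 8 days in vitro they received vehicle (VEH, 0.1% DMSO) or 10 μM tianeptine (TIA), an atypical antidepressant, and 24 h later they underwent 3 h of oxygen-glucose deprivation (OGD), a culture model of ischemia, or a sham procedure. RNA was taken after 6 h of reoxygenation. CONTROL-VEH and CONTROL-TIA were thus sham cultures, OGD-VEH and OGD-TIA were deprived cultures, and all had the same genotype and age. Each group had 4 cultures, numbered 1 to 16 across the groups. The study calls them biological replicates, and the labels do not say which shared a preparation, so p-values measured the spread between these cultures.

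The proteasome degrades proteins that carry ubiquitin chains. Its barrel, the 20S core, is built of outer alpha rings and inner beta rings, and only the beta subunits Psmb5, Psmb6 and Psmb7 cut peptide bonds. The 19S regulatory particle sits on the barrel, binds ubiquitin, removes it and unfolds the substrate with a ring of ATPases. Under interferon the cutting subunits can be replaced by Psmb8, Psmb9 and Psmb10, which yields the immunoproteasome of immune cells, and dedicated chaperones assemble both particles. In neurons proteasomes act in synaptic turnover and in the clearance of damaged proteins.

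Promoter sequence is shown for the genes on which the results below turn or which are their closest contrast. It was taken from RefSeq (GRCm38.p6), which matched 40 of the 48 genes, as the 250 bases before the annotated start, written 5′ to 3′ on the gene's strand. Capitals mark the searched motifs, read on both strands. These were TGACNNNGC (antioxidant response element core), the interferon-stimulated response element (TTTC repeated after a gap of any 2 bases), TTCNNNGAA (gamma-activated site), CCAAT (bound by NF-Y) and CCGGAAG (bound by ETS factors). Psma3 (chr12:70974373-70974622, plus strand) encodes an alpha ring subunit. Psmd4 (chr3:95042615-95042864, minus strand) encodes a ubiquitin receptor of the 19S particle. Psmd11 (chr11:80428365-80428614, plus strand) encodes a 19S lid subunit, Psmb6 (chr11:70525107-70525356, plus strand) a standard cutting subunit and Psmb8 (chr17:34197945-34198194, plus strand) an interferon-inducible one.
Psma3: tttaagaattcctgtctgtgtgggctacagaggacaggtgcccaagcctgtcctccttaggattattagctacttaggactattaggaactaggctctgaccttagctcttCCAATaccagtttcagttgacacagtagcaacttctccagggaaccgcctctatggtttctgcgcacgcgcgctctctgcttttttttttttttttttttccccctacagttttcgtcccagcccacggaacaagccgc
Psmd4: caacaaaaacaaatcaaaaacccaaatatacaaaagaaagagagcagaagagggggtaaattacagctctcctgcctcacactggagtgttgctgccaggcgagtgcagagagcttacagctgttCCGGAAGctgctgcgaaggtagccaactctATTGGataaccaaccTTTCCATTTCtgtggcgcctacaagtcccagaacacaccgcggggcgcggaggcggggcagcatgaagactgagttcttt
Psmd11: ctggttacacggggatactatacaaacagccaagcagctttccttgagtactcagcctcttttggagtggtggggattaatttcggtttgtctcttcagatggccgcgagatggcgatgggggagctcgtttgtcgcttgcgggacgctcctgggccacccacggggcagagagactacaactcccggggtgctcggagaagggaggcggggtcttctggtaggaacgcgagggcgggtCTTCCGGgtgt
Psmb6: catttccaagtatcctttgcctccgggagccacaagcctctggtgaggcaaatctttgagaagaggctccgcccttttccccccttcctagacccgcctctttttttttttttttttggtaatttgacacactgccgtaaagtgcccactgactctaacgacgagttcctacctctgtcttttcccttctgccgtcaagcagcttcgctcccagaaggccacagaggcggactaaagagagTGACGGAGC
Psmb8: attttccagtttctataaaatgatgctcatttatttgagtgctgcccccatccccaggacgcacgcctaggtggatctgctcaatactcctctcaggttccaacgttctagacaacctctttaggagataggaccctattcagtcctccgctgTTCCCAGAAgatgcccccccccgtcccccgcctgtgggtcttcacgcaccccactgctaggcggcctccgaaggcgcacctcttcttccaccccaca
The Psmd4 window held the ETS motif, a CCAAT box on the other strand and an interferon-stimulated element. Psmb6 held the antioxidant core next to its start, Psmb8 a gamma-activated site and Psma3 a CCAAT box. Psmd11 held the ETS site on the other strand.

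Motifs were counted in the whole window of 300 bases, which ran 50 bases past the start, with the first listed window of the 3 genes that had 2. The ETS motif was present in 13 of 40 proteasome genes (32.5%) against 9.12% of 27025 genes. It was present in 11 of 19 regulatory genes, among them Psmc1, Psmc2, Psmd4 and Psmd11, in 0 of 11 core genes and in 2 of 6 chaperones. Counted over every listed window it was present in 14 of 40 (35%) against 9.93% of all genes, with the core gene Psma6 added through its other window. The antioxidant core was present in 6 of 40 (15%, against 12.47%), including Psmb5, Psmb6 and the activator gene Psme4. The interferon-stimulated element was present in 5 of 40 (12.5%, against 3.49%), the gamma-activated site in 3 of 40 (7.5%, against 8.47%) and CCAAT in 14 of 40 (35%, against 37.92%). No matches of different motifs overlapped in these genes. The shares over all genes took in genes of any expression level, and no set of genes of similar level was compared. A match is a match of letters only, and nothing about a factor's binding was measured.

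Libraries corresponded to an estimated 20.5 to 26.1 M reads, a range somewhat above the aligned reads given in the labels, and 1 read on 1 kb of transcript was worth 0.0383 to 0.0487 FPKM. Proteasome genes held 0.505 to 0.622% of all FPKM in a culture. The labelled cell type was checked against marker genes. All 10 neuron markers had a mean of at least 10 FPKM, and their sum ran from 2177 to 2816 FPKM in CONTROL-VEH, 2252 to 2432 in CONTROL-TIA, 1073 to 2018 in OGD-VEH and 1391 to 2276 in OGD-TIA. All 8 astrocyte markers and 7 of 8 oligodendrocyte lineage markers were also detected at a mean of at least 0.5 FPKM, with Mog near 0. The oligodendrocyte sum ran from 177 to 213 FPKM in CONTROL-VEH, from 159 to 194 in CONTROL-TIA, from 244 to 676 in OGD-VEH and from 225 to 438 in OGD-TIA. The astrocyte sum ran from 753 to 1614 FPKM in CONTROL-VEH, 657 to 874 in CONTROL-TIA, 1011 to 2532 in OGD-VEH and 752 to 1934 in OGD-TIA, highest in cultures 4, 8, 12 and 16 of their groups. Whether cultures 4, 8, 12 and 16 shared a preparation cannot be told from the labels and was not tested. Only 1 of 11 microglia markers, 0 of 6 endothelial and 2 of 6 fibroblast markers reached that mean. In such bulk RNA, fewer cells of a type and less RNA per cell cannot be told apart.

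At baseline, in CONTROL-VEH, proteasome genes were among well-expressed transcripts, with 4 exceptions. The 14 core genes other than Psma8 ranged from 54.9 FPKM (Psma2) to 249 FPKM (Psmb4), and their median was 143 FPKM. The regulatory genes ranged from 33.4 FPKM for Psmf1, which encodes the modulator PI31, to 554 FPKM for the ATPase gene Psmc1. The assembly chaperones were lower, from 10.5 FPKM (Psmd10) to 81.8 FPKM (Psmd5), with a median of 22.7 FPKM. The 4 exceptions, all under the mean of 0.5 FPKM required for testing, were Psma8, the testis form of an alpha subunit, Psmb11, the thymic cutting subunit, and the immunoproteasome genes Psmb8 and Psmb9. The filter left 44 of 48 genes for OGD-VEH versus CONTROL-VEH.

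Isoform annotation set part of these levels. The 48 genes had 251 isoforms, of which 101 were annotated as protein coding (GENCODE). In 15 genes coding isoforms made up less than 50% of the summed FPKM, and in 14 the most abundant isoform was not coding. The coding share was 2.56% for Psme2, a subunit of the PA28 activator, 3.86% for Psmb10, 5.24% for Psma3 and 6.64% for Psmc6. It was 95.1% for Psmd4 and 100% for the chaperone genes Psmg2 and Psmg4. With coding isoforms alone, the 6 ATPase genes of the 19S base, which form a ring of 1 copy each, ranged from 35.5 to 81.9 FPKM (2.31-fold), against 54.6 to 554 FPKM (10.1-fold) summed. Core genes then ranged from 14.3 FPKM (Psma3) to 171 FPKM (Psma7). Single-end reads of 50 bases assign fragments to overlapping isoforms with uncertainty, so values of coding isoforms are also given for several genes.

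**Figure D1:**
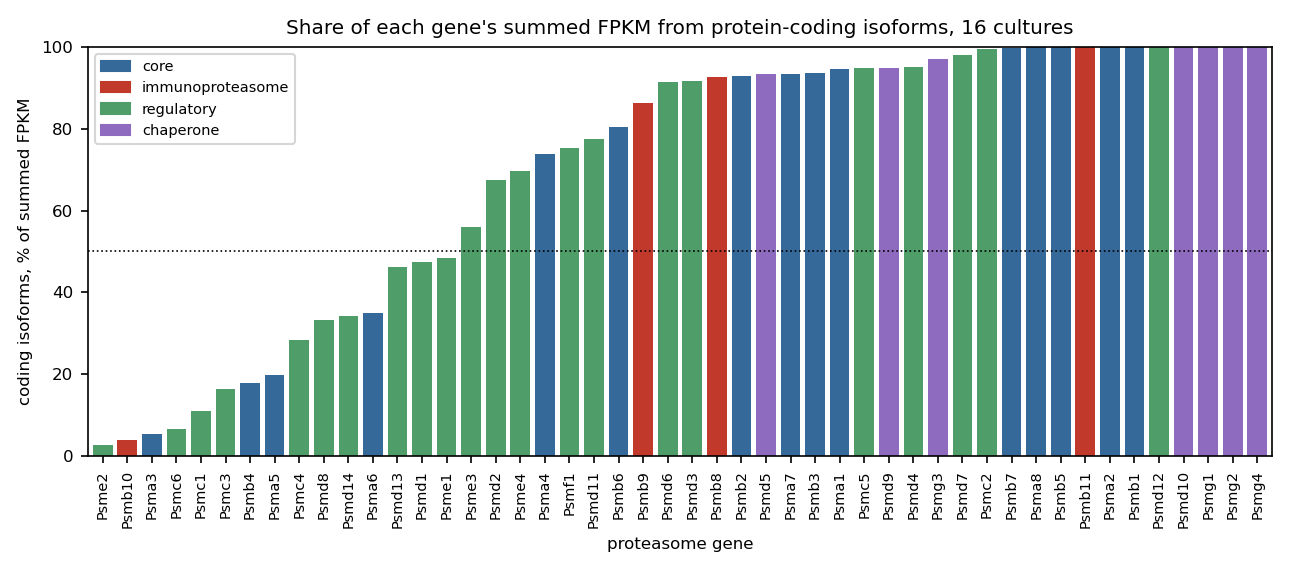
Each bar is the share of a gene's summed FPKM over the 16 cultures that came from isoforms annotated as protein coding (y axis, percent), with colours for the 4 classes and a dotted line at 50%. The 15 genes left of the line's crossing include Psme2 (2.56%), Psmb10 (3.86%) and Psma3 (5.24%), while all 7 chaperone genes lie above 90%.

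Sequence shared with other genes was a further limit. Of the 48 genes, 25 shared at least one 50-base stretch with transcripts of another gene, and 8 shared over 10% of their stretches. Psmb5 shared 54.1%, Psma5 49.1%, Psme2 28.3% and Psma3 15.4%, so their values are uncertain. Psmd4, Psmg2, Psmg4 and Psmb10 shared none.

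The first question was what OGD did in vehicle cultures. After OGD 2 proteasome genes rose, Psma3 and Psmd4, each by about 1.3-fold, none fell, and none reached a 2-fold change. The genes nearest past the threshold were the 20S assembly chaperones Psmg2 and Psmg4, the beta subunit gene Psmb3 and the lid gene Psmd11. Psmg2, Psmg4 and Psmd11 had larger differences and larger standard errors than the called genes. The shift was small and wide: 42 of 44 genes had a log2 fold change above 0, against 58.2% of all 16346 genes tested, and their median was 0.18 against 0.10 for all genes. After median-ratio scaling 36 of 44 were above 0, against 51.8% of all genes, and the median was 0.10 against 0.02. These signs were not independent, since the genes varied together between cultures, with a median correlation of 0.40 once group means were removed. Among sham cultures, genes above their CONTROL-VEH mean ran from 10 of 44 (CONTROL-VEH culture 4, CONTROL-TIA culture 6) to 40 of 44 (CONTROL-TIA culture 5). The same limit applies to the counts of signs in the comparisons below. The count of 2 of 44 stood against a background of 8.44% of all genes called, 4.99% higher and 3.45% lower, so calls were not more frequent than over all genes. At a 2-fold change, 4.09% of all genes were called and 0 proteasome genes. All fold changes here are on the log2(FPKM + 0.1) scale, tested with limma, and a gene was called at a Benjamini-Hochberg adjusted p (padj) of at most 0.05 over all genes.

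Psma3 (ENSMUSG00000060073, chr12:70974621-70996347) had 245, 229, 249 and 248 FPKM in CONTROL-VEH and 296, 316, 314 and 328 FPKM in OGD-VEH. Every deprived vehicle culture was above every control, and the means were 242.9 ± 9.30 and 313.7 ± 13.4 FPKM (SD, n = 4). The log2 fold change was 0.37 ± 0.07 (SE, fold 1.29, limma padj = 0.0347 by Benjamini-Hochberg). Most of this was an isoform of 562 bases annotated as a target of nonsense-mediated decay, which held 69.03% of the gene's FPKM and averaged 163.5 ± 9.17 FPKM in vehicle controls and 225.4 ± 12.1 FPKM after OGD (SD, n = 4). The coding isoforms of Psma3 averaged 14.3 ± 1.16 FPKM and 15.0 ± 1.22 FPKM, and their log2 fold change was 0.07 ± 0.11 (limma padj = 0.637, Benjamini-Hochberg). The rise of Psma3 was thus not detectable in its coding isoforms.

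Psmd4 (ENSMUSG00000005625, chr3:95032694-95042614), the ubiquitin receptor gene, had 99.3, 86.7, 98.9 and 91.0 FPKM in CONTROL-VEH and 116, 129, 117 and 141 FPKM in OGD-VEH. The groups did not overlap, and OGD-VEH culture 12 was the highest. Means were 94.0 ± 6.20 and 125.7 ± 11.8 FPKM (SD, n = 4), and the log2 fold change was 0.42 ± 0.10 (SE, fold 1.34, limma padj = 0.0456, Benjamini-Hochberg). With coding isoforms alone it rose by 0.42 as well (limma padj = 0.0378, Benjamini-Hochberg). Both calls depended on single cultures. Without any 1 of the 4 control cultures or of OGD-VEH cultures 10, 11 and 12, no proteasome gene was called, while 1 to 106 of all genes were. Without OGD-VEH culture 9, 10 proteasome genes and 4991 of all genes were called, against 1380 of all genes with every culture.

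**Figure D2:**
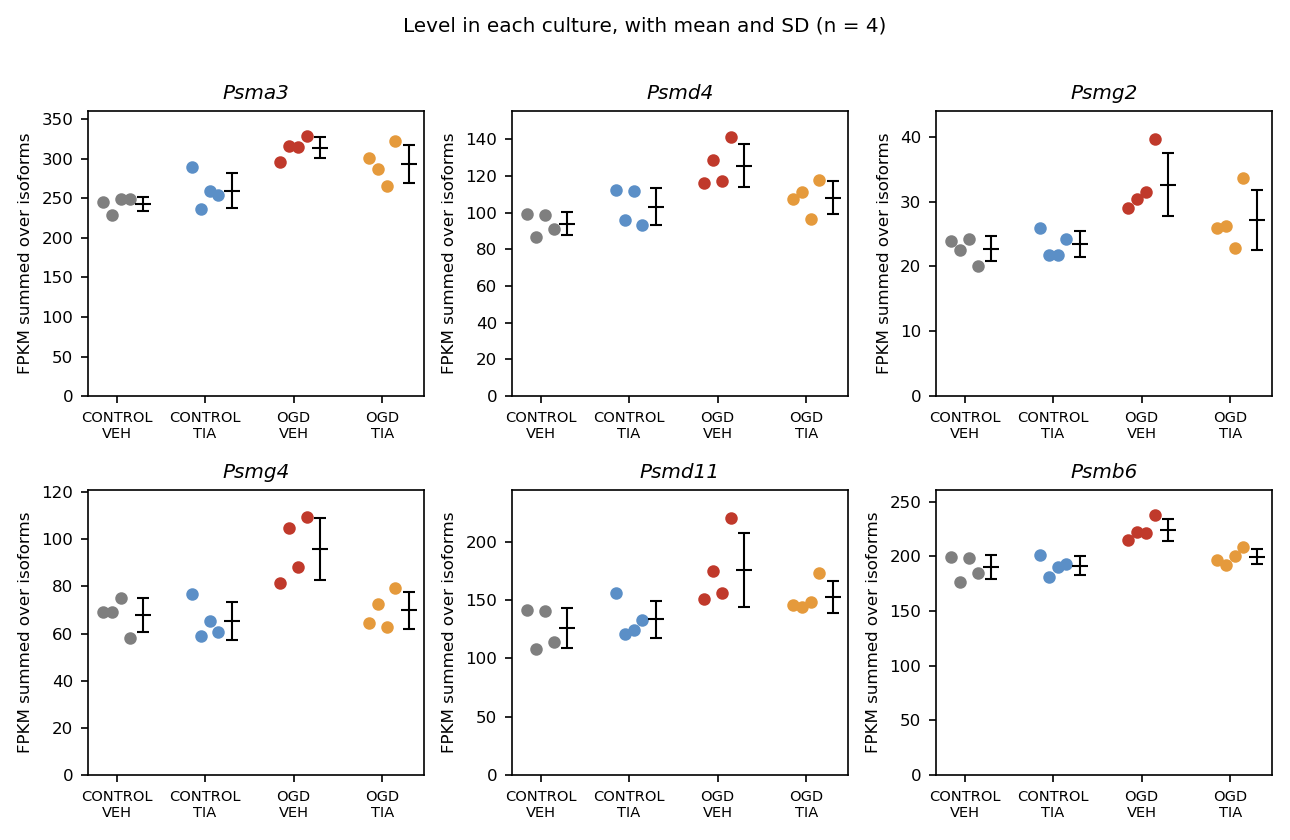
Each point is 1 culture's FPKM summed over isoforms (y axis from 0) for 6 proteasome genes in the 4 groups, and the bar beside the points is the mean with its SD (n = 4). The 6 genes are all among those whose OGD-VEH cultures lie above all CONTROL-VEH cultures, so that separation follows from the choice. Over all genes tested, 12.7% lay above in this way. OGD-TIA overlaps CONTROL-TIA in each of the 6, but no proteasome gene passed the test of a different OGD effect after tianeptine. Psma3 for example rises from 242.9 to 313.7 FPKM in vehicle cultures.

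The 4 genes of the 20S assembly chaperones had the highest median of any role, 0.44, with 0 of 4 called. Psmg2, whose product pairs with that of Psmg1 to start the alpha ring, had 24.0, 22.5, 24.3 and 20.1 FPKM in CONTROL-VEH and 29.0, 30.3, 31.5 and 39.7 FPKM in OGD-VEH. Its log2 fold change was 0.51 ± 0.13 (SE, limma padj = 0.0508, Benjamini-Hochberg). Psmg4, which acts with Psmg3 in a second chaperone pair, had 69.3, 69.3, 75.2 and 58.0 FPKM in CONTROL-VEH and 81.3, 104.6, 88.2 and 109.3 FPKM in OGD-VEH, a log2 fold change of 0.49 ± 0.13 (limma padj = 0.0528, Benjamini-Hochberg). For both genes the groups did not overlap, OGD-VEH culture 9 was the lowest deprived culture and culture 12 the highest. With coding isoforms alone, where fewer genes were tested, both values were the same and passed (limma padj = 0.0387 for Psmg2 and 0.0410 for Psmg4). Psmg3 had a log2 fold change of 0.38 and Psmg1 of 0.20, and their groups overlapped. The chaperones of the 19S base were lower, with a median of 0.10 from -0.04 for Psmd5 to 0.25 for Psmd9.

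In the core, the alpha ring had a median of 0.22, the structural beta subunits 0.21 and the standard cutting subunits 0.21. Next to Psma3 in the alpha ring, Psma5 had a log2 fold change of 0.36, and Psma4 was the lowest at 0.06. Psmb3, a structural beta subunit gene, had 127, 117, 122 and 109 FPKM in CONTROL-VEH and 138, 150, 140 and 170 FPKM in OGD-VEH, a log2 fold change of 0.33 ± 0.10 (SE, limma padj = 0.0666, Benjamini-Hochberg). Its groups did not overlap, and 17.8% of its stretches were shared with other genes. Psmb4 was the lowest of that role at 0.12.

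Psmb6, which carries the caspase-like activity, had 199.6, 176.6, 198.8 and 185.1 FPKM in CONTROL-VEH and 214.9, 222.0, 220.9 and 238.2 FPKM in OGD-VEH, without overlap. The difference was 0.24 ± 0.08 on the log2 scale (SE, limma padj = 0.0826, Benjamini-Hochberg). Psmb5, the chymotrypsin-like subunit and the target of proteasome inhibitor drugs, had 125, 143, 149 and 127 FPKM and 143, 146, 166 and 176 FPKM, a log2 difference of 0.21 (limma padj = 0.193). Psmb7, the trypsin-like subunit, had 134, 118, 126 and 112 FPKM and 129, 137, 140 and 135 FPKM, a log2 difference of 0.15 (limma padj = 0.266). For Psmb5 and Psmb7 the groups overlapped. None of the 3 cutting subunit genes passed the test.

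The regulatory genes had a median of 0.16, against 0.21 in the core. With 1 culture left out these medians ran from 0.11 to 0.20 and from 0.17 to 0.26. The ranges overlapped, and the difference between the classes was not tested. Among the 19S non-ATPase genes Psmd4 was called and Psmd11 was the highest. Psmd11, whose product is a lid subunit that limits proteasome assembly, had 142, 108, 141 and 114 FPKM in CONTROL-VEH and 151, 175, 156 and 221 FPKM in OGD-VEH. The groups did not overlap, culture 12 stood above the others, and the log2 fold change was 0.47 ± 0.15 (SE, limma padj = 0.0729, Benjamini-Hochberg). Psmd14, the deubiquitinase of the lid, had 192, 163, 197 and 130 FPKM and 173, 199, 166 and 206 FPKM. These overlapped, with a log2 difference of 0.14 (limma padj = 0.529). The lowest of the role was Psmd2 at 0.04.

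The ATPase genes had a median of 0.12 and 0 of 6 calls. Psmc6 was the highest at 0.19 and Psmc4 the lowest at -0.10. Psmc4 depended on the isoforms counted: its sum was 181, 167, 213 and 124 FPKM in CONTROL-VEH and 113, 201, 146 and 184 FPKM in OGD-VEH, with wide overlap. Its coding isoforms had 51.6, 42.1, 32.7 and 41.7 FPKM and 71.3, 53.6, 67.3 and 66.6 FPKM, without overlap. On coding isoforms Psmc4 rose by 0.63 ± 0.15 on the log2 scale (SE, limma padj = 0.0387, Benjamini-Hochberg), against -0.10 ± 0.22 for the sum. The first OGD-VEH culture had the highest coding value of its group and the lowest sum. The gene's most abundant isoform, annotated as retaining an intron, had 6.43, 57.7, 38.6 and 42.1 FPKM in OGD-VEH. Whether reads were assigned differently between isoforms in that culture was not tested.

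With coding isoforms alone, 6 of 44 genes were called higher and 0 lower, against 10.0% of all genes higher and 6.62% lower. They were Psmc4, Psmd4, Psmd8, Psmd11, Psmg2 and Psmg4. Coding Psmd8, a lid subunit gene, had 65.5, 62.5, 66.2 and 63.1 FPKM in CONTROL-VEH and 75.2, 80.5, 80.5 and 76.1 FPKM in OGD-VEH. It rose by 0.28 ± 0.07 on the log2 scale (SE, limma padj = 0.0418, Benjamini-Hochberg), and its groups did not overlap. Coding Psmd11 rose by 0.66 ± 0.18 (SE, limma padj = 0.0453, Benjamini-Hochberg).

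The activators that can replace the 19S particle had a median of 0.22 and 0 calls. Psme4, the gene of the nuclear activator PA200, had 39.6, 34.6, 32.9 and 33.7 FPKM in CONTROL-VEH and 35.8, 46.0, 57.8 and 54.8 FPKM in OGD-VEH. OGD-VEH culture 9 lay within the controls and the other cultures above them, and the log2 fold change was 0.44 ± 0.16 (SE, limma padj = 0.0975, Benjamini-Hochberg). Psme2, which forms the PA28 ring with Psme1, had 104, 94.6, 105 and 118 FPKM and 113, 139, 136 and 155 FPKM, a log2 difference of 0.35 (limma padj = 0.0825). On coding isoforms the Psme2 difference was 1.03 ± 0.90 (SE). Psme1 differed by 0.07, and by -0.11 on coding isoforms. Psme3, the nuclear form of PA28, differed by 0.09 and Psmf1 by 0.12 on the log2 scale. In each of these 5 activator and inhibitor genes the groups overlapped.

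**Figure D3:**
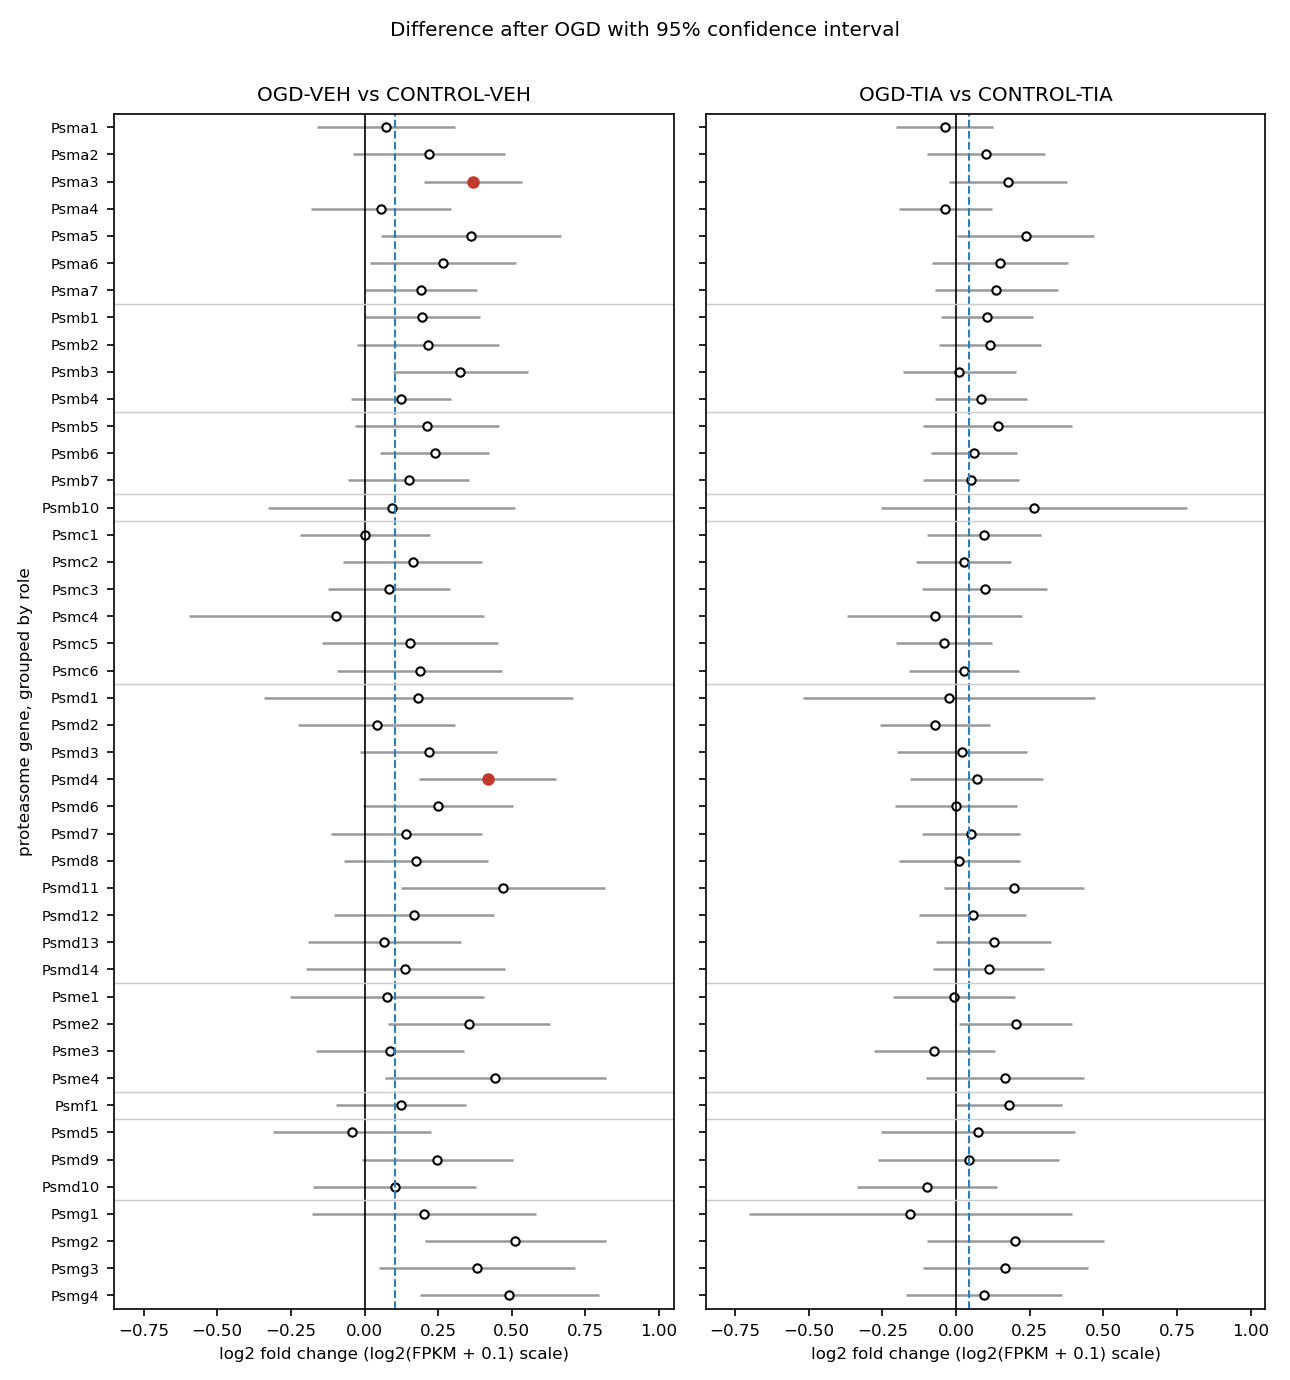
Log2 fold change on the log2(FPKM + 0.1) scale (x axis) of the 44 tested proteasome genes with its 95% confidence interval, for OGD against control in vehicle (left) and tianeptine cultures (right), with called genes filled in red and the median of all genes as a dashed line. In vehicle cultures 42 of 44 points lie above 0 and 2 are filled, and in tianeptine cultures 34 of 44 lie above 0 and none is filled.

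Counted by single cultures, 13 of 44 genes in OGD-VEH lay above CONTROL-VEH without overlap and 0 lay below, where 12.7% of all genes did so upward and 9.95% downward. The 13 were 7 of 14 core genes (Psma3, Psma6, Psma7, Psmb1, Psmb3, Psmb4 and Psmb6), 4 of 22 regulatory genes (Psmc2, Psmd4, Psmd6 and Psmd11) and 2 of 7 chaperones (Psmg2 and Psmg4). At an unadjusted p under 0.05, 14 of 44 were higher, against 20.2% of all genes. The median difference from CONTROL-VEH over the genes ran from -0.13 (culture 4) to 0.10 (culture 1) in single CONTROL-VEH cultures. In CONTROL-TIA it ran from -0.09 (culture 6) to 0.13 (culture 5). It was 0.09, 0.23, 0.16 and 0.27 in OGD-VEH cultures 9 to 12, so culture 9 lay within the range of the sham cultures. In the same cultures the neuron marker sum was 2018, 1540, 1451 and 1073 FPKM, lowest in culture 12, the oligodendrocyte sum was 244, 560, 526 and 676 FPKM and the astrocyte sum 1011, 1354, 1237 and 2532 FPKM, both highest in culture 12. All 10 neuron markers had a log2 fold change below 0 and 1 fell (Syt1), while of 7 tested oligodendrocyte lineage markers 4 rose (Olig1, Olig2, Cspg4 and Sox10) and Mbp fell. Of 8 astrocyte markers limma called 0, 2 were higher at an unadjusted p under 0.05, and the median was 0.67. The part of these cell type markers in the proteasome values was not tested.

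**Figure D4:**
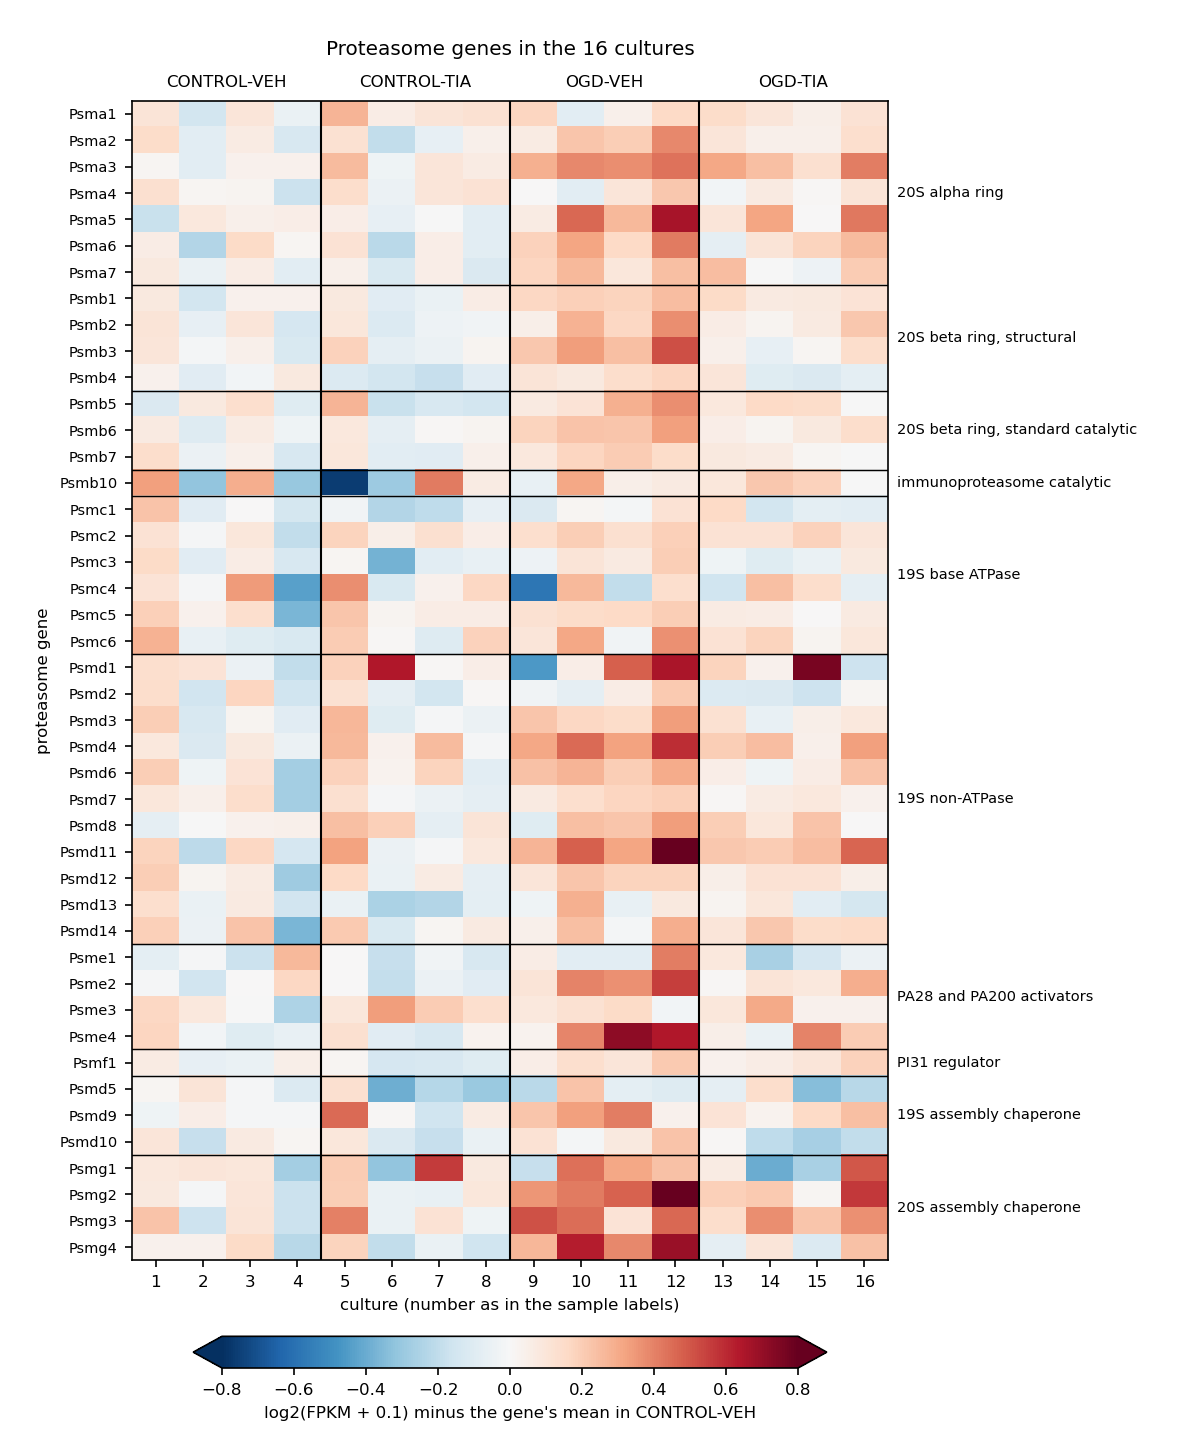
Each cell is a gene's log2(FPKM + 0.1) in 1 culture minus its mean in CONTROL-VEH (colour, red higher, limited to the range from -0.8 to 0.8), with the 44 tested genes in rows by role and the 16 cultures in columns by group. The OGD-VEH block is mostly red, least so in culture 9 (median 0.09) and most in culture 12 (median 0.27), and OGD-TIA is paler with medians of 0.05 to 0.11. Medians of the sham cultures run from -0.13 (CONTROL-VEH culture 4) to 0.13 (CONTROL-TIA culture 5). OGD-VEH culture 9 and all OGD-TIA cultures lie within that range.

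The immunoproteasome genes were examined next, since some interferon and antigen presentation genes rose after OGD. Psmb8, which replaces Psmb5, was under the filter at 0.283, 0.226, 0.375 and 0.083 FPKM in CONTROL-VEH. It had 0.220, 0.898, 0.937 and 0.572 FPKM in OGD-VEH, which equals about 7.7, 34.0, 33.9 and 20.9 reads. Culture 9 was within the range of the controls and the other cultures above it. Without the filter the log2 difference was 1.09 ± 0.49 (SE, 95% CI from -0.08 to 2.26, limma padj = 0.441, Benjamini-Hochberg), so a difference was not detectable at this depth. Psmb9, which replaces Psmb6, had 5.7 to 23.2 reads in a culture and a log2 difference of 0.25 with overlap.

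Psmb10, which replaces Psmb7, averaged 45.1 ± 11.1 FPKM in vehicle controls and 47.2 ± 5.19 FPKM after OGD (SD, n = 4), with a log2 difference of 0.09 ± 0.18 (SE, 95% CI from -0.33 to 0.51, limma padj = 0.746, Benjamini-Hochberg). Almost all of it came from non-coding isoforms, chiefly a processed transcript of 426 bases with 74.6% of the gene's FPKM. The coding isoform of Psmb10 had 1.35, 2.32, 2.62 and 1.96 FPKM in CONTROL-VEH and 1.86, 1.53, 1.98 and 2.49 FPKM in OGD-VEH, which overlapped. Of the FPKM of the 6 cutting subunit genes, the immunoproteasome forms held 0.648 ± 0.172% in CONTROL-VEH and 0.629 ± 0.0809% in OGD-VEH on coding isoforms, and 0.453 ± 0.119% and 0.567 ± 0.109% in CONTROL-TIA and OGD-TIA (SD, n = 4). The share lay between 0.345 and 0.798% in every culture. Summed over all isoforms it was 5.06 to 12.2%, because of Psmb10.

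Psma8 was listed at 0 in 12 of 16 cultures and reached at most 2.2 reads, and Psmb11 had 0.9 to 6.6 reads. Neither could be compared between groups at this depth.

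**Figure D5:**
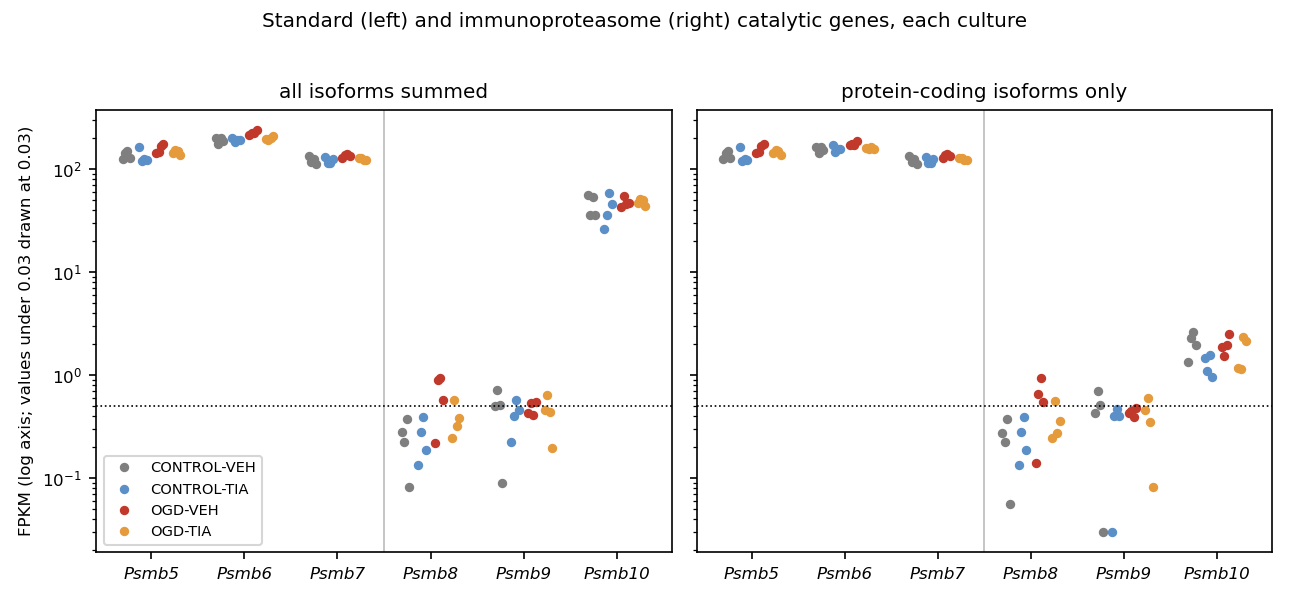
FPKM of each culture (points, log axis, values under 0.03 drawn at 0.03) for the standard cutting subunit genes Psmb5, Psmb6 and Psmb7 and their immunoproteasome counterparts, for all isoforms (left) and coding isoforms only (right), with the filter of 0.5 FPKM dotted. Standard genes lie above 100 FPKM, Psmb8 and Psmb9 near or under the filter, and Psmb10 at a mean of 45.1 FPKM in CONTROL-VEH summed but 2.06 FPKM from its coding isoform.

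Interferon and antigen presentation genes were measured in the same cultures. Of 23 listed 16 were tested, 5 rose and 0 fell in OGD-VEH versus CONTROL-VEH, against 4.99% of all genes higher, and the median log2 fold change of those tested was 1.13. Over all 16 cultures only 15 of the 23 reached the mean required for testing. A gene could thus be tested here through its level in OGD-VEH alone, so the count and median are a description. The listed genes were not tested against the immunoproteasome genes. Cxcl10, a chemokine, rose by 4.47 ± 0.78, the interferon-induced GTPase gene Gbp2 by 4.35 ± 0.63 and B2m, the light chain of class I molecules, by 0.89 ± 0.23 (log2, SE, limma padj = 0.0336, 0.0281 and 0.0481, Benjamini-Hochberg). Gbp3 and the transcription factor gene Irf1 rose too.

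Partners of the proteasome, such as ubiquitin genes, shuttle proteins and transcription factors, formed a list of 42 genes, of which 40 were tested. Of these 3 rose and 0 fell, against 4.99% of all genes higher, and 28 of 40 were above 0 with a median of 0.14, against 58.2% and 0.10 over all genes. Nfe2l2, the antioxidant transcription factor NRF2, had 7.73, 7.42, 8.65 and 11.8 FPKM in CONTROL-VEH and 16.6, 42.8, 38.4 and 63.6 FPKM in OGD-VEH. It rose by 2.04 ± 0.37 on the log2 scale (SE, limma padj = 0.0337, Benjamini-Hochberg), without overlap and again least in culture 9. The co-chaperone gene Bag3 rose by 1.71 ± 0.40 and Ngly1, whose product removes sugars from NRF1, by 0.87 ± 0.21 (SE, limma padj = 0.0437 and 0.0458). Nfe2l1, which encodes NRF1, the factor that drives subunit genes when the proteasome is impaired, was picked after its values were seen. It had 210, 197, 201 and 200 FPKM in CONTROL-VEH and 174, 187, 166 and 162 FPKM in OGD-VEH, a log2 difference of -0.23 ± 0.08 that did not pass (limma padj = 0.0870, Benjamini-Hochberg).

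The second question was the effect of OGD after tianeptine. In OGD-TIA versus CONTROL-TIA limma called 0 of 44 proteasome genes and 0% of all 16242 genes. This does not show that OGD changed no gene, as the paper's DESeq2 analysis of these groups did report differentially expressed genes. Of all genes, limma called 1.19% with array quality weights and 1.85% with isoforms weighted by length, and 0 proteasome genes with either. An unadjusted p under 0.05 was reached by 19.5% of all genes. At that level 3 proteasome genes were higher (Psme2, Psma5 and Psmf1) against 11.6% of all genes, and 34 of 44 were above 0 against 55.8%. The median was 0.07, and 0.04 over all genes. Psme2 had 105, 92.5, 102 and 98.8 FPKM in CONTROL-TIA and 106, 113, 112 and 129 FPKM in OGD-TIA, and Psmf1 had 33.7, 30.4, 30.6 and 31.2 FPKM and 34.1, 34.8, 35.7 and 38 FPKM. These were the 2 of 44 genes without overlap (9.51% of all genes, and 6.72% lower where 0 proteasome genes were), and the log2 differences were 0.20 and 0.18 (SE 0.08 for both, limma padj = 0.239 and 0.255, Benjamini-Hochberg). On coding isoforms, 2.56% of its FPKM, Psme2 went the other way, with 4.29, 4.83, 4.85 and 2.05 FPKM in CONTROL-TIA and 1.93, 0.763, 2.04 and 3.47 FPKM in OGD-TIA, a log2 difference of -1.03 ± 0.45 (SE, limma padj = 0.221, Benjamini-Hochberg). Coding Psmf1 differed by 0.18 and its groups overlapped. Psma3 had 289, 237, 259 and 254 FPKM in CONTROL-TIA and 301, 286, 265 and 322 FPKM in OGD-TIA, which overlapped. Psmd4 had 112, 95.9, 112 and 93.1 FPKM and 108, 111, 96.6 and 118 FPKM, also with overlap.

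Whether OGD acted differently after tianeptine was tested as the interaction of both factors over 16 cultures. No proteasome gene and 0% of all genes passed in limma, and 7 of 44 had a value above 0 (45.8% of all genes). At an unadjusted p under 0.05, 3 of 44 had a smaller OGD difference after tianeptine, against 3.40% of all genes. They were Psmd4 (-0.35 ± 0.13), Psmb3 (-0.31 ± 0.12) and Psmg4 (-0.40 ± 0.17, log2 and SE, limma padj = 0.722 for each, Benjamini-Hochberg). An effect called in vehicle and not in tianeptine cultures was thus not shown to differ between them.

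OGD-TIA was also compared directly with OGD-VEH, which shares the deprived vehicle cultures with the first comparison, so the values are not independent of it. Psmb8 passed the filter here, but only through its level in OGD-VEH, so that its lower value in OGD-TIA follows from the filter and is a description. With it 45 genes were tested. Limma called 0 of them and 0% of all genes, and 6 of 45 (6 of the 44 without Psmb8) were above 0, against 43.3%. The median was -0.11, and -0.05 over all genes. In single cultures 7 of 45 genes lay lower without overlap, namely Psmb1, Psmb3, Psmb6, Psmb7, Psmc5, Psmd3 and Psmg4, where 2.51% of all genes did so. At an unadjusted p under 0.05, 5 were lower (Psmg4, Psmb3, Psmb6, Psmb4 and Psmd10), against 5.04% of all genes.

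Psmg4 had 81.3, 104.6, 88.2 and 109.3 FPKM in OGD-VEH and 64.4, 72.5, 62.8 and 79.5 FPKM in OGD-TIA, and the difference was -0.45 ± 0.13 on the log2 scale (SE, limma padj = 0.551, Benjamini-Hochberg). Psmb3 had 138, 150, 140 and 170 FPKM against 122, 113, 120 and 131 FPKM, a log2 difference of -0.29 with the same padj in limma. For both genes every OGD-TIA culture was below every OGD-VEH culture, and the OGD-TIA cultures were within the range of the control cultures or just above it. Psmb8 had 0.247, 0.573, 0.322 and 0.383 FPKM in OGD-TIA, a log2 difference of -0.56 with a 95% CI from -1.59 to 0.47. With the authors' values rescaled by median ratios, 11 of 44 genes were above 0 in this comparison, against 49.4% of all genes.

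The third question was the effect of tianeptine without OGD. In CONTROL-TIA versus CONTROL-VEH limma called 0 of 44 proteasome genes and 0% of all genes, and 0 of 44 had an unadjusted p under 0.05, against 3.84% of all genes. The log2 fold change was above 0 in 22 of 44 genes (48.5% of all genes), with a median of 0.01. No proteasome gene was without overlap between these groups, where 0.965% of all genes were higher and 1.09% lower. Psmb10 had the widest spread, with 26.0, 36.0, 58.8 and 46.1 FPKM in CONTROL-TIA, and differed by -0.14 with a 95% CI from -0.76 to 0.48. Its coding isoform had 1.48, 1.11, 1.58 and 0.966 FPKM in CONTROL-TIA, which overlapped the vehicle controls, and differed by -0.63.

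Over both pretreatments together, 8 OGD against 8 control cultures with pretreatment as a covariate, 15 of 44 proteasome genes rose and 0 fell, against 32.1% of all genes called, 18.7% higher and 13.4% lower. These cultures are the same as in the comparisons above. No proteasome gene and 4.78% of all genes changed by 2-fold. Log2 fold changes of the 15 ran from 0.15 for Psmb6 to 0.36 for Psmg2, with a median over all 44 genes of 0.12 against 0.08 over all genes. The core gave 7 of the 15, with Psma3 first (0.27 ± 0.06), then Psma5 (0.30 ± 0.08), Psmb1, Psmb6, Psma7, Psma6 and Psmb2 (SE, limma padj from 0.00428 to 0.0474, Benjamini-Hochberg). The regulatory genes gave 5 of 22, namely Psme2 (0.28 ± 0.07, limma padj = 0.0107), Psmd11 (0.33), Psmd4 (0.24), Psmf1 (0.15) and Psme4 (0.31). The chaperones gave Psmg2, Psmg4 (0.29) and Psmg3 (0.27). No ATPase or immunoproteasome gene was called, and no gene's 8 deprived cultures were all above or all below its 8 controls (background 3.22% above and 2.42% below).

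The pooled count depended on single cultures, the scaling and the isoforms. It was 5 without CONTROL-VEH culture 2, 6 without OGD-VEH culture 10 or 12 or OGD-TIA culture 16, 7 without CONTROL-VEH culture 4 or CONTROL-TIA culture 6, 9 without CONTROL-TIA culture 8 and 11 to 19 without another culture. After median-ratio scaling 5 genes were called (Psma3, Psma5, Psmd11, Psme2 and Psmg2), and all genes called split into 15.0% higher and 15.97% lower. On coding isoforms 12 of 44 were called, against 23.8% of all genes higher and 16.1% lower, among them Psmc4, Psmd8 and Psmd4 but not Psma3 or Psme2. Among the partners 9 of 40 rose and 0 fell, against 18.7% of all genes higher, with Nfe2l2 first (1.63 ± 0.27), Bag3 (1.27 ± 0.31), the maturation factor gene Pomp (0.28 ± 0.08) and Adrm1, a ubiquitin receptor gene (0.33 ± 0.09, log2 and SE, limma padj from 0.00162 to 0.0310 over the 9, Benjamini-Hochberg).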

How the data were processed

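RNA-seq of 16 mouse cortical neuron cultures was analysed, grouped as in the labels. The authors' provider made stranded mRNA libraries with single-end reads of 50 bases, aligned them with STAR to GRCm38 (Ensembl 92) and estimated isoform levels with eXpress. Tool versions were not given in the sources used here. The deposited values were FPKM per isoform, normalized by the authors with TMM. FastQC and DESeq2 are named in the submitters' processing notes.

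FPKM of 135202 isoforms were summed per gene symbol, and 74 lines without an identifier were left out. FPKM are not counts, so log2(FPKM + 0.1) was tested with limma 3.58.1 (R 4.3.3, lmFit and eBayes with trend) for genes whose FPKM averaged at least 0.5 over the fitted cultures, and p-values were adjusted by Benjamini-Hochberg over all genes. A gene was called at padj of at most 0.05, and as a DEG with a log2 fold change of at least 1 in size. Each pair of groups was fitted on its own 8 cultures, and the interaction and the pooled OGD effect on all 16. Isoform types came from GENCODE M21, in which 99.82% of isoforms were found. Depth was estimated from the smallest steps of FPKM in genes with 1 isoform, and precision is limited by that depth for genes under 1 FPKM. Tables and figures were made with Python 3.11.15, pandas 2.3.3 and matplotlib 3.10.9. The fit was tested on simulated data.

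The genes and lists were chosen with earlier results of these data known. The genes named were the cutting subunits and their immunoproteasome forms, the activators, Psmf1, Psmd4, Psmd14, the highest and lowest gene of each role in OGD-VEH versus CONTROL-VEH, called genes and genes under the filter, and others only to list a count. From the other lists up to 6 genes by padj could be named. Alternatives were other pseudocounts (1 and 0.01), filters, median-ratio scaling, array quality weights, all cultures in 1 fit, isoforms weighted by length, coding isoforms only and leaving out each culture.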

Additional observations from a re-analysis of the deposited data

Results flagged for a closer look

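In 5 of the 128 groups of 4 cultures examined for the named genes, 1 culture stood apart from the rest by Dixon's criterion, which chance meets in about 1 in 20 groups. Psmb5 was high in CONTROL-TIA culture 5 at 163.6 FPKM, with the next value at 124.1 FPKM. Psmc6 was high in CONTROL-VEH culture 1 at 643.8 FPKM, next to 509.0 FPKM. Psmd11 was high in OGD-TIA culture 16 at 173.1 FPKM, next to 148.4 FPKM. Psmg1 was low in CONTROL-VEH culture 4 at 10.6 FPKM, with the nearest value at 13.5 FPKM. Psmg3 was low in OGD-VEH culture 11 at 24.1 FPKM, with the nearest value at 30.6 FPKM.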

How the results depend on the processing

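No paired analysis was possible because the labels number the cultures 1 to 16 across the groups and no number is shared between groups. For OGD-VEH versus CONTROL-VEH the 2 calls (8.44% of all genes called) became 0 without the filter (0.0186%), 4 with a minimum mean of 2 FPKM (12.3%), 1 with median-ratio scaling (7.96%), 12 with array quality weights (38.8%), 12 with all 16 cultures in 1 fit (28.2%), 10 with isoforms weighted by length (25.1%) and 6 with coding isoforms (16.7%), and 0 to 10 when 1 culture was left out. No alternative called a gene lower in this comparison. Psmd4 lost its call without the filter (limma padj = 0.129), with median-ratio scaling (0.0545) and with length weights (0.0506). Psma3 lost its call without the filter (limma padj = 0.107) and on coding isoforms, where its difference was near 0 as given above. For the pooled OGD effect the 15 calls (32.1% of all genes) became 6 without the filter (6.36%), 5 with median-ratio scaling (31%), 8 with array weights (30.9%), and 5 (without CONTROL-VEH culture 2) to 19 (without CONTROL-TIA culture 5). In OGD-TIA versus OGD-VEH array weights called 2 of 45 genes lower, and 9.42% of all genes in either direction. The core median for OGD in vehicle cultures was 0.13 after median-ratio scaling, against 0.21, and that scaling moved the split of all genes called from 4.99% higher and 3.45% lower to 3.90% and 4.06%, with 36 of 44 proteasome genes above 0. Among immunoproteasome genes only Psmb10 was tested for tianeptine without OGD, and it was -0.63 on coding isoforms, against -0.14. For OGD-TIA versus OGD-VEH the middle of Psmb8 and Psmb10 was -0.26, and it was 0.077 after median-ratio scaling, where only Psmb10 passed the filter, and -0.47 to 0.10 when 1 culture was left out, with Psmb10 alone again without OGD-VEH culture 10 or 11. Small log2 differences for OGD in vehicle cultures changed sign. With median-ratio scaling Psme1 was -0.0073, Psma4 -0.026 and Psmd2 -0.040. With array weights Psma4 was -0.00684, Psmd2 -0.016 and Psmd5 0.0044. With length weights Psmc4 was 0.13 and Psmd5 0.12, and on coding isoforms Psmb10 was -0.045, Psme1 -0.11 and Psmc4 0.63. With 1 culture left out, Psmb10 ran from -0.012 to 0.20, Psme1 from -0.036 to 0.16, Psma4 from -0.00067 to 0.10, Psmc4 from -0.24 to 0.065, Psmd2 from -0.014 to 0.10, Psmd5 from -0.13 to 0.015, and Psmb9 was -0.20 without CONTROL-VEH culture 4. The cause of these changes was not tested, except that a fit with other genes adjusts over another number of tests and a fit without a culture has fewer samples. Under settings that kept every culture, 194 of 208 counts and medians stayed within 1.5 times or within the spread, and 313 of 394 values of single genes kept their direction and side of the threshold. With 1 culture left out, 240 of 256 and 371 of 482 did so, and 93 of the 482 lost their call. These totals include counts that stayed at 0 and genes never called, so they say little about how stable the calls were.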
